A study of Sus scrofa with 9 samples.

Results

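miR-10a, miR-10b, miR-196a and miR-196b are microRNAs (miRNAs, short RNAs that lower the output of matching messenger RNAs) whose genes sit inside the Hox clusters. Their sequences were followed in spleen of the Ningxiang pig, a Chinese indigenous breed, of which 3 small RNA libraries each were made 30, 90 and 210 days after birth. All table entries named ssc-miR-10a, ssc-miR-10b, ssc-miR-196a or ssc-miR-196b (written here without the pig prefix ssc) were taken, from either arm of the precursor hairpin and whatever the precursor number, which gave 7 of 975 distinct mature sequences. They were miR-10a-5p, miR-10a-3p, miR-10b, mir-10b-p3, miR-196a, mir-196a-1-p3 and miR-196b-5p. The labels name no treatment and no genotype, and they do not state that each library is a different pig, so a p-value reflects how far these 9 libraries scatter, which may be technical.

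Hox genes encode transcription factors that set position along the body axis, and their order in each cluster follows the order of the body regions in which they act. The miR-10 and miR-196 genes are conserved between the Hox genes of vertebrates, and several of their best-known targets are Hox messages, such as HOXB8 for miR-196 in the mouse. In blood-forming tissue of mouse and human, miR-196b and miR-10a are known from progenitor cells, and miR-10a also from regulatory T cells, while miR-10b is best known from mesenchymal and tumour cells. In the RefSeq gene table of assembly Sscrofa11.1, used here for gene order only, MIR10A lay between HOXB3 and HOXB5 and MIR10B between HOXD8 and HOXD3. MIR196A-1 lay between HOXB8 and HOXB13, and MIR196A-2 between HOXC10 and HOXC9. The genes named are those whose listed span ends nearest on each side, so a Hox gene within a longer span, or one not listed, is not named.

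The main arms are shown first because a single base separates the members of each pair, and because their seed (bases 2 to 8 from the 5′ end, in capitals), the stretch that selects targets, is shared within a pair. They are given 5′ to 3′ with T for U, as in the deposited table.
miR-10a-5p: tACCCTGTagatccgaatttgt
miR-10b: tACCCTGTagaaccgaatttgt
miR-196a: tAGGTAGTttcatgttgttggg
miR-196b-5p: tAGGTAGTttcctgttgttgggt

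Both pairs differed at position 12, counted from the 5′ end of the first sequence. The change from miR-10a-5p to miR-10b was T12A, and that from miR-196a to miR-196b-5p was A12C, over the 22 bases that each pair had in common. Every read assigned to one member of a pair rather than the other therefore depends on 1 base, and how mismatched reads were assigned is not given in the sources used here. Among the 975 sequences the seed of miR-10 occurred in 3, the third being PC-3p-31289_97, a candidate predicted by the authors. Its sequence gACCCTGTccgccccttcccagt shares the seed with miR-10 but not the bases that follow it. It stood between 5.72 and 21.9 in the 9 libraries. The seed of miR-196 occurred only in miR-196a and miR-196b-5p.

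The opposite arms are shown because they differ from each other where the main arms do not. Their seeds, in capitals, differed from each other and occurred in no other sequence of the table.
miR-10a-3p: cAAATTCGtatctaggggaat
mir-10b-p3: aCAGATTCgattctaggggaat
mir-196a-1-p3: cAACGACAttaaaccacccga

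The other arms of miR-10a and miR-10b ended in the same 11 bases but began differently. No entry for the other arm of miR-196b was among the sequences found.

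A pair of relatives outside the group is shown for contrast, again with the seed in capitals. miR-100 belongs to the wider miR-10 family, and let-7a has a seed that overlaps that of miR-196.
miR-100: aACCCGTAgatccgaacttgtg
let-7a: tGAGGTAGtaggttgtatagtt

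miR-10a-5p and miR-100 shared a run of 11 bases that starts at base 7 of miR-10a-5p and at base 6 of miR-100, so the seeds themselves differed. The whole seed of miR-196a stood in let-7a as well, but 1 base further from the 5′ end, starting at base 3 instead of base 2.

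The values are the authors' normalised read numbers per mature sequence, scaled per library by a method that is not given in the sources used here. Low values of a library were multiples of a step, which was read as 1 sequencing read; on that basis the estimated depth was 4.50 to 7.01 M reads in the day 210 libraries and 6.56 to 9.25 M in the others (M, mega). Most sequences under 5 reads are listed at 0, and 5 reads corresponded to a value between 3.62 and 8.001. Within an age the Spearman correlation between libraries across all sequences was at least 0.917 at day 30, 0.911 at day 90 and 0.880 at day 210. The values of a library summed to 6.40 ± 0.219 M, 6.70 ± 0.316 M and 7.52 ± 0.339 M for days 30, 90 and 210 (mean ± SD, n = 3). Markers of spleen blood cells were present in every library. miR-150 and miR-142, called the lymphocyte list here, summed to at least 58712 and the erythroid miRNAs miR-451, miR-486 and miR-144 to at least 8179.

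The 7 sequences together held 0.668% of all values, and nearly all of that was miR-10. The 5p arms of miR-10a and miR-10b made up 99.4% of the sum. miR-10a-5p had a mean of 31156.5 ± 5660 over the 9 libraries (SD) and ranked 42 among 975 by mean, and miR-10b had 14469 ± 3935 and ranked 65. miR-10a-3p followed with 205.5 ± 31.8 (rank 262) and mir-10b-p3 with 73.1 ± 25.8 (rank 317). The miR-196 sequences were scarce, with 6.44 ± 5.50 for miR-196a, 5.13 ± 6.82 for mir-196a-1-p3 and 2.81 ± 4.47 for miR-196b-5p. Each of the first 4 sequences in this order stood apart from its neighbours, since the lowest library of one lay above the highest library of the next. The 3 miR-196 sequences overlapped and could not be ordered. Levels of different sequences also carry differences in how well each is ligated and amplified, so the order is that of read numbers.

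**Figure D1:**
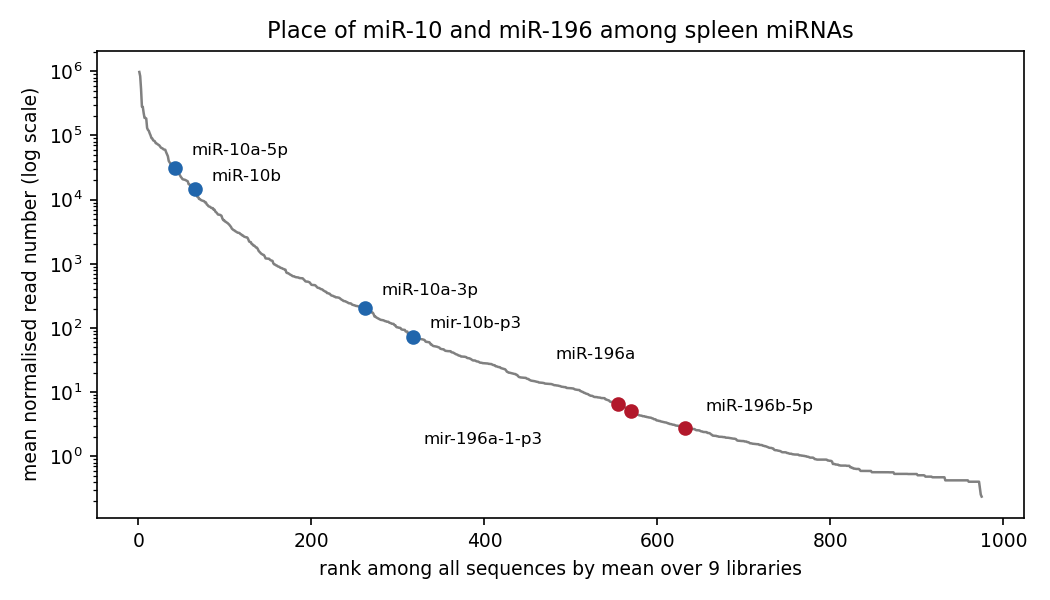
Mean normalised read number over the 9 libraries (log scale) against rank for all sequences (grey line), with the miR-10 sequences in blue and the miR-196 sequences in red. miR-10a-5p and miR-10b lie at ranks 42 and 65, their other arms at 262 and 317, and the 3 miR-196 sequences at 555, 570 and 632.

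The design asks whether these miRNAs differ in the spleen between days 30, 90 and 210. None of the 7 passed the threshold in any of the 3 comparisons (limma, Benjamini-Hochberg adjusted p under 0.05 over 630 tested sequences). Over all tested sequences 1.11% passed between day 90 and day 30, 9.21% between day 210 and day 30 and 8.1% between day 210 and day 90. An F test of any difference among the ages called 0 of the 7 against 10.3% of all tested. Of the 7, 1 had an unadjusted p under 0.05 in a pairwise comparison, miR-10b between day 90 and day 30, where 15.2% of all tested did; for day 210 against day 30 and day 90 this share of all tested was 29.4% and 27.1%. All 7 passed the filter on low values (at least 5 in at least 3 libraries), miR-196b-5p with exactly 3 libraries and the other miR-196 sequences with 5 each.

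miR-10b, the member near HOXD genes, stood at 14048, 22465 and 15602 at day 30 (replicates 1, 2 and 3). At day 90 it stood at 7498, 13260 and 13341, and at day 210 at 14434, 12925 and 16648. All 3 day 90 libraries lay below every day 30 library, while the day 210 libraries overlapped both earlier ages. The group means were 17371 ± 4479, 11366 ± 3350 and 14669 ± 1873 (mean ± SD, n = 3). The fitted log2 fold change of day 90 against day 30 was -0.63 ± 0.25 (SE; 95% interval -1.19 to -0.07), with an adjusted p of 0.271 by limma. Of all tested sequences 13.8% lay wholly lower at day 90 in the same way. The size rested partly on the lowest day 90 library and the highest day 30 library: the difference was -0.36 without day 90 replicate 1 (adjusted p 0.641 by limma) and -0.43 without day 30 replicate 2 (adjusted p 0.574). As a share of all values the difference was larger, at -0.70 (adjusted p 0.183 by limma). The other comparisons of miR-10b gave -0.22 ± 0.25 for day 210 against day 30 and 0.41 ± 0.25 for day 210 against day 90 (adjusted p 0.595 and 0.316 by limma). As shares of all values they were -0.45 and 0.24, the first was -0.02 without day 30 replicate 2, and the second was 0.13 without day 90 replicate 1.

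mir-10b-p3, the opposite arm from the same hairpin, had the same arrangement of ages at a far lower level. It stood at 74.7, 125.9 and 81.8 at day 30, at 41.2, 57.9 and 74.5 at day 90, and at 62.9, 46.5 and 92.8 at day 210. The day 90 libraries again lay below those of day 30, but day 90 replicate 3 only just, and the day 210 libraries overlapped both. Its log2 fold change of day 90 against day 30 was -0.69 ± 0.37 (95% interval -1.52 to 0.13; adjusted p 0.411 by limma). Behind these values were an estimated 36 to 132 reads per library, against 7822 to 23553 for miR-10b. The arms come from 1 precursor, so this is no second sample of the difference.

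In these bulk libraries, fewer cells of a type and less RNA per cell cannot be told apart. Beside the lower miR-10b at day 90, the marker miRNAs of stromal cells gave the following values. The endothelial miR-126 (1 of 1 matched, 3 sequences) summed to between 50274 and 64233 at day 30 and between 40192 and 51883 at day 90. The fibroblast miRNAs miR-199a, miR-199b and miR-214 (3 of 3 matched, 5 sequences) summed to between 85169 and 122567 at day 30 and between 78940 and 116689 at day 90. The smooth muscle miR-143 and miR-145 (2 of 2 matched, 4 sequences) summed to between 1046668 and 1059875 at day 30 and between 813448 and 1111918 at day 90. Among blood cells, the lymphocyte list (2 of 2 matched, 3 sequences) went from between 58712 and 66620 to between 96969 and 110885. Its miR-142 is not particular to lymphocytes. None of the sequences in these 4 lists was at 0 in a library. The myeloid miR-223 (1 of 1 matched, 2 sequences) summed to between 4962 and 9433 at day 30 and between 7912 and 9476 at day 90, and the erythroid list (3 of 3 matched, 4 sequences) to between 15455 and 23770.04 and between 15366 and 23105. Of the 4 erythroid sequences 3 had lower values at day 90 (median log2 difference -0.71, 0 called by limma), and at day 210 against day 30 2 were called lower (median -1.23). The striated muscle list (4 of 4 matched, 5 sequences) lay between 7798 and 10748 and then between 5566 and 8742. The epithelial list (4 of 7 matched, 5 sequences) lay between 163 and 350 and then between 372 and 520.5, and of its sequences miR-141, mir-200b-p5 and miR-429 were at 0 in at least 1 library, as was mir-223-p5 of the myeloid list. The part of any of these cell types in the miR-10b values was not tested.

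miR-10a-5p, the member near HOXB genes and the most abundant of the group, stood at 27258, 27398 and 33529 at day 30. At day 90 it stood at 33555, 24936 and 25221, and at day 210 at 35364, 30863 and 42285. Day 210 replicate 3 was the highest library, and day 30 replicate 3 and day 90 replicate 1 lay within the range of day 210, so that the ages overlapped in every comparison. The group means were 29395 ± 3581, 27904 ± 4896 and 36170.5 ± 5754 (mean ± SD, n = 3). The largest of its differences was day 210 against day 90, with a log2 fold change of 0.38 ± 0.17 (95% interval -0.0004 to 0.75; adjusted p 0.184 by limma). The difference was 0.29 ± 0.17 for day 210 against day 30 and -0.08 ± 0.17 for day 90 against day 30 (adjusted p 0.285 and 0.913 by limma). As a share of all values of a library, the differences at day 210 shrank to 0.21 against day 90 and 0.06 against day 30.

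miR-10a-3p stood at 216, 211 and 220.1 at day 30, at 213, 158 and 192 at day 90, and at 176, 194 and 270.4 at day 210. The day 30 libraries were close to each other and day 210 spread on both sides of them, while day 90 reached below. Its fitted log2 differences were -0.21 ± 0.23, -0.04 ± 0.23 and 0.17 ± 0.23 for day 90 against day 30, day 210 against day 30 and day 210 against day 90, with adjusted p between 0.668 and 0.935 by limma. Their 95% intervals were, in the same order, -0.73 to 0.31, -0.56 to 0.48 and -0.35 to 0.69, so a difference in either direction is not excluded in any comparison.

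**Figure D2:**
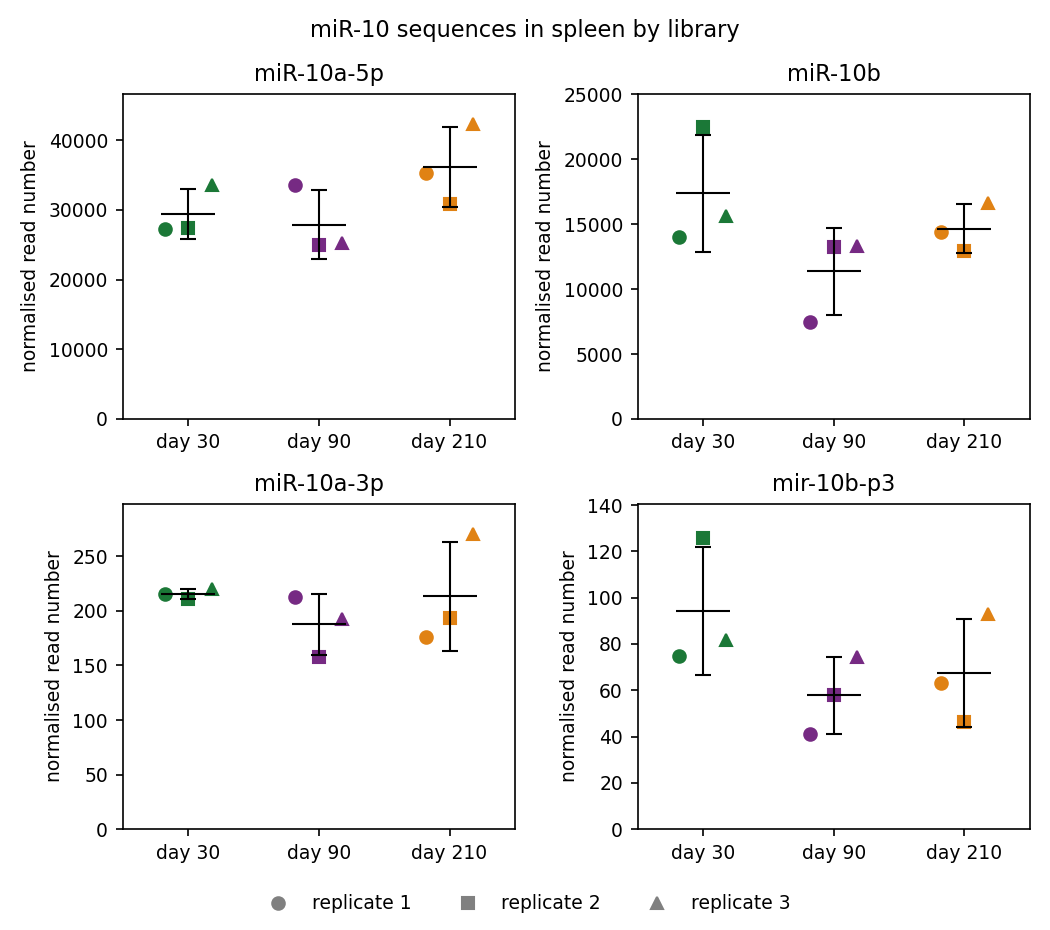
Normalised read number of the 4 miR-10 sequences by age; points are libraries (symbol, replicate), black lines the mean ± SD of 3 libraries, and each panel has its own scale from 0. Both arms of miR-10b lie lower at day 90 than in any day 30 library, as 13.8% of all tested sequences did. For mir-10b-p3 this holds only just, with 74.50 in day 90 replicate 3 against 74.68 in day 30 replicate 1. The ages overlap for both arms of miR-10a.

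miR-196b-5p was at 0 in every day 90 library, so it is left out where the sequences are counted against that age. The other 6 sequences all had a lower mean log2 value at day 90 than at day 30, with a median log2 fold change of -0.52 against -0.04 over all 630 tested. At day 210 against day 30, 6 of the 7 were lower and 1 higher (median -0.49 against -0.15), and at day 210 against day 90, 2 of the 6 were lower and 4 higher (median 0.19 against -0.14). With every low value raised to a common floor, the value of 5 reads in the shallowest library, the first 2 medians were smaller, at -0.32 and -0.16, and those of all tested sequences were 0 and -0.03. The third median was -0.034 without day 210 replicate 3 and 0.02 as shares of all values. The arms of a hairpin share their source and the miR-196 values lie near the level of 5 reads, so these medians describe few independent measurements.

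**Figure D3:**
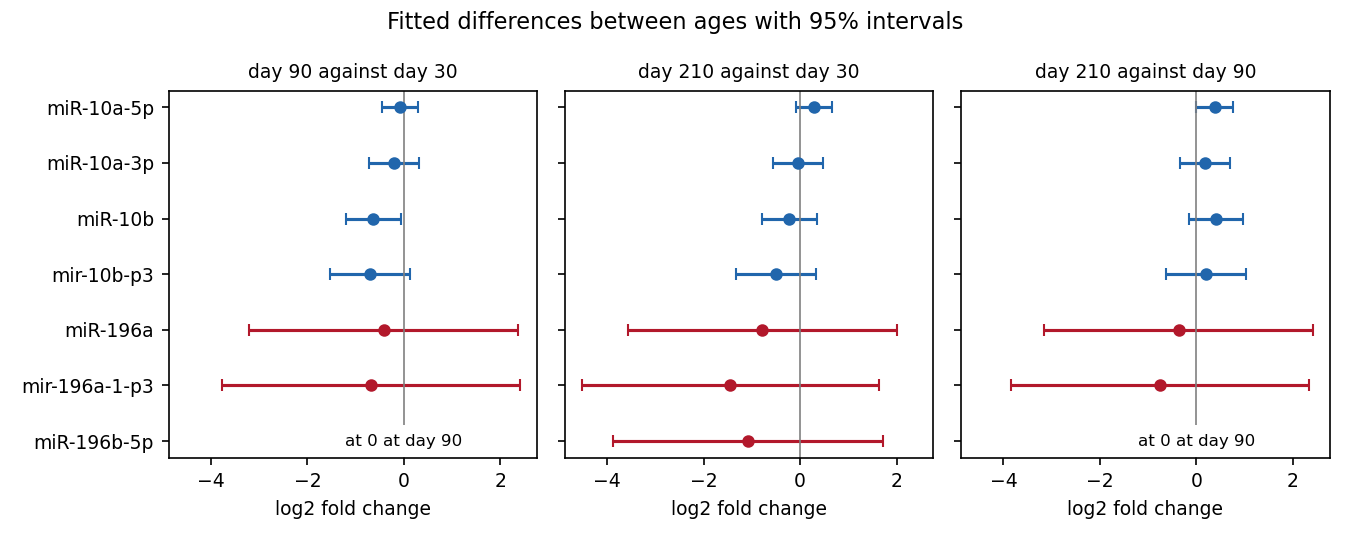
Fitted log2 fold changes (points) of the 7 sequences in the 3 comparisons of ages with their 95% intervals (bars), miR-10 in blue and miR-196 in red. Only the interval of miR-10b between day 90 and day 30 (-1.19 to -0.07) lies wholly on one side of 0, and the intervals of miR-196 span several log2 units. miR-196b-5p is not plotted against day 90, where it was at 0 in every library.

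Ratios of the abundant miR-10 sequences within a library hardly depend on how libraries were scaled, and log2 ratios, with 1 added to each value, were compared between ages by exact permutation. miR-10a-5p was above miR-10b in all 9 libraries, by between 1.22 and 4.48 times. The ratio was 1.94, 1.22 and 2.15 at day 30, 4.48, 1.88 and 1.89 at day 90, and 2.45, 2.39 and 2.54 at day 210. The day 210 libraries were close to each other and all above those of day 30, whereas day 90 replicate 1 stood far above every other library. That library had the lowest miR-10b of all 9 and the highest miR-10a-5p of the earlier ages. On the log2 scale the ratio was 0.78 ± 0.44, 1.33 ± 0.72 and 1.30 ± 0.04 (mean ± SD, n = 3). No difference among the ages was detected beyond the spread between libraries (exact permutation p = 0.421, adjusted 0.632 over 6 values). For day 210 against day 30 the difference was 0.52 (exact two-sided permutation p = 0.1, the smallest that 3 against 3 allows; adjusted 0.6 over 18 comparisons).

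The main arm of each miR-10 hairpin exceeded the other arm by more than 100 times in every library. miR-10a-5p was between 126.5 and 201 times miR-10a-3p, and miR-10b between 178 and 278 times mir-10b-p3. For miR-10a the ratio was 126.5, 129.98 and 152 at day 30, 158, 158 and 131 at day 90, and 201, 159 and 156 at day 210. All 3 day 210 libraries lay above the day 30 libraries, by as little as 156 against 152, and day 90 overlapped day 30 and day 210. In log2 units the means were 7.08 ± 0.15, 7.21 ± 0.15 and 7.41 ± 0.20 (mean ± SD, n = 3; exact permutation p = 0.0536 over the 3 ages, adjusted 0.321 over 6 values). For miR-10b the ratio was 188, 178 and 191 at day 30, 182, 229 and 179 at day 90, and 229, 278 and 179 at day 210, with all ages overlapping (exact permutation p = 0.407, adjusted 0.632).

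**Figure D4:**
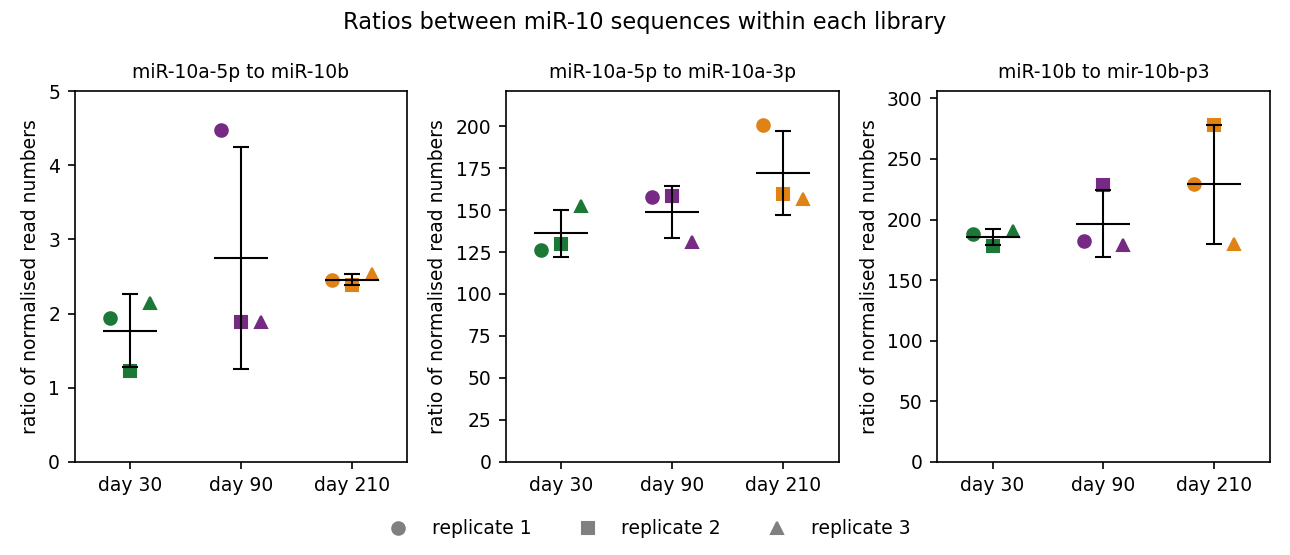
Ratios of normalised read numbers within each library, from left to right miR-10a-5p to miR-10b, miR-10a-5p to miR-10a-3p, and miR-10b to mir-10b-p3; points are libraries, black lines the mean ± SD of 3 libraries. The day 210 ratios of miR-10a-5p to miR-10b sit between 2.39 and 2.54, and day 90 replicate 1 stands apart at 4.48.

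In these 9 libraries the arms of the miR-10b hairpin had a higher correlation than those of miR-10a, and the main arms of the genes did not follow each other. Over the 9 libraries the Pearson correlation of log2(value + 1) was 0.89 between miR-10b and mir-10b-p3, the highest that miR-10b had with any of the 629 other tested sequences. Between miR-10a-5p and miR-10a-3p it was 0.63, the 36th highest for miR-10a-5p. The ratio of the arms spread about as widely for both hairpins, from 126.5 to 201 for miR-10a and from 178 to 278 for miR-10b. The main arms differed in range, from 7498 to 22465 for miR-10b and from 24936 to 42285 for miR-10a-5p. The higher correlation therefore does not show a steadier ratio of the arms. miR-10a-5p and miR-10b, which share a seed but lie in different Hox clusters, had a correlation of -0.05. All of these pairs share library and depth, and the correlations are descriptions of 9 points.

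After its own other arm, the sequences most like miR-10b were the candidates PC-5p-38632_67 (0.89) and PC-3p-18081_199 (0.87), miR-676-3p (0.82) and mir-125b-1-p3 (0.76). Those most like miR-10a-5p were miR-342 (0.80), known from lymphocytes, the candidate PC-5p-10014_379 (0.79), miR-34c (0.77), and the candidates PC-5p-29308_106 (0.76) and PC-5p-2838_1485 (0.75). The closest to miR-196a was mir-324-p3 (0.82) and to miR-196b-5p miR-450a (0.90). For the miR-196 sequences such likeness rests mainly on which libraries were listed at 0.

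The miR-196 sequences lay at the edge of detection in spleen at all ages. miR-196a stood at 14.0, 5.25 and 2.17 at day 30, at 9.11, 0 and 11.4 at day 90, and at 0, 3.23 and 12.8 at day 210. Each age held a library above 11 and a library under 5, so no age stood apart. The other arm, mir-196a-1-p3, named for the precursor between HOXB8 and HOXB13, stood at 21.2, 6.68 and 0 at day 30, at 5.75, 5.08 and 0 at day 90, and at 7.47, 0 and 0 at day 210. It was above 0 in 2, 2 and 1 libraries of the 3 ages, and its highest value was that of day 30 replicate 1. miR-196b-5p, the miRNA of the HOXA cluster in mammals, was listed at 0 in 6 of 9 libraries. It stood at 5.72 and 11.6 in day 30 replicates 2 and 3 and at 8.001 in day 210 replicate 3, and all 3 day 90 libraries were at 0.

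The reads behind these values were few. Over all 9 libraries together miR-196a had an estimated 60 reads, mir-196a-1-p3 50 and miR-196b-5p 27, against 283355 for miR-10a-5p. Some values of miR-196a stood for fractions of a read (16.5, 5.5, 9.5 and 2.5 reads), and how reads were divided between entries is not given in the sources used here. A sequence at 0 had mostly fewer than 5 reads in that library, which is a value of up to 8.001, so a listed 0 does not show absence. The limit was highest in day 210 replicate 3, the library with the lowest estimated depth.

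No age difference of miR-196 passed the threshold, and the intervals were wide. The fitted log2 differences of miR-196a were -0.42 ± 1.25, -0.78 ± 1.25 and -0.37 ± 1.25 for day 90 against day 30, day 210 against day 30 and day 210 against day 90 (adjusted p between 0.710 and 0.953 by limma). Its 95% intervals together ran from -3.57 to 2.42. For mir-196a-1-p3 the differences were -0.68 ± 1.38, -1.44 ± 1.38 and -0.76 ± 1.38, and for miR-196b-5p at day 210 against day 30 -1.08 ± 1.25, with adjusted p between 0.536 and 0.909 by limma. miR-196b-5p was at 0 throughout day 90, so no fold change against that age is given. miR-196a was above miR-196b-5p in 5 of 9 libraries and below it in 2, and both were at 0 in 2. Their log2 ratio gave an exact permutation p of 0.589 over the ages (adjusted 0.707 over 6 values). Libraries with both at 0 entered with a log2 ratio of 0, and miR-196b-5p was at 0 in 6 of 9 libraries. The test therefore cannot decide whether the ratio differed among the ages. For sequences this scarce the log2 ratio depends on what is added to each value: the ages' means of miR-196a to miR-196b-5p spanned 1.72, and 0.85 with 5 added. The ratio of miR-196a to its other arm, which was at 0 in 4 of 9 libraries, gave an exact permutation p of 0.964 and cannot decide it either.

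**Figure D5:**
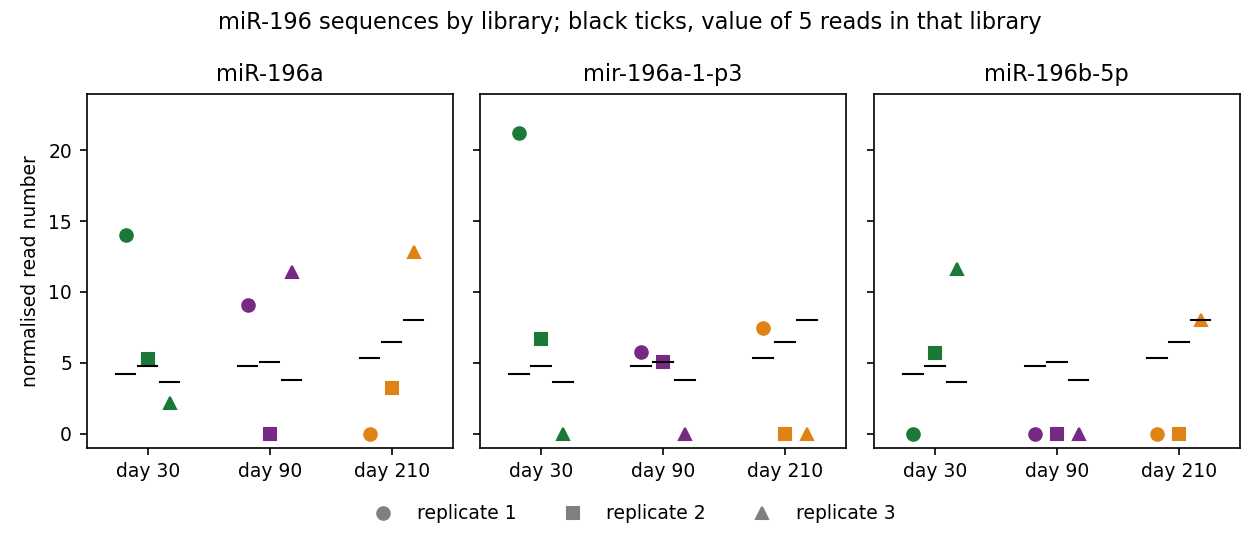
Normalised read number of the 3 miR-196 sequences by age; points are libraries (symbol, replicate) and the short black ticks give the value that stands for 5 reads in each library. Most points lie at 0 or near the ticks, and the highest value is 21.2 for mir-196a-1-p3 in day 30 replicate 1.

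Summed over the 7 sequences, the share of a library's values followed miR-10. For days 30, 90 and 210 it was 0.734 ± 0.0506%, 0.591 ± 0.0484% and 0.684 ± 0.133% (mean ± SD, n = 3). All day 90 libraries lay below those of day 30, by 0.143 percentage points in the mean (exact two-sided permutation p = 0.1, the smallest possible; adjusted 0.6 over 18 comparisons). Day 210 spread from 0.559% to 0.823%. Over the 3 ages the exact permutation p was 0.214 (adjusted 0.632 over 6 values).

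The nearest relatives were far more abundant than miR-10. miR-99a, miR-99b and miR-100, which belong to the wider miR-10 family, held 6.77% of all values in 6 sequences, of which 5 passed the filter. With miR-615, which in the RefSeq table lies inside HOXC5, 0 of these 6 tested sequences passed between day 90 and day 30, 1 was higher at day 210 than at day 30, and 0 passed between day 210 and day 90. The 1 was miR-99a-5p (log2 0.58 ± 0.13, adjusted p 0.0257 by limma). In alternatives chosen after seeing the data it passed in 12 of 18, and as a share of all values its difference was 0.35 (adjusted p 0.0572 by limma). miR-615 was also scarce: it stood at 9.34, 22.9 and 25.3 at day 30, at 4.79, 5.08 and 3.80 at day 90, and at 0, 7.75 and 0 at day 210. Its day 30 libraries lay above those of day 90, an arrangement that 13.8% of all tested sequences had, and above those of day 210. Its log2 difference of day 210 against day 30 was -3.18 ± 0.90 (adjusted p 0.0542 by limma, and between 0.0171 and 0.161 in 17 alternatives, of which 4 passed). With the common floor this difference was -1.05 (adjusted p 0.0939 by limma), so its size rested largely on values listed at 0. miR-10b had a correlation of 0.43 with miR-100, 0.17 with miR-99a-5p and 0.41 with miR-99b over the 9 libraries, and miR-10a-5p 0.24, 0.51 and -0.24.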

How the data were processed

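The series has 9 spleen samples, 3 per age. Per the labels' protocols, Trizol was used for total RNA, TruSeq chemistry for the small RNA libraries and ACGT101-miR for read cleaning. The table the authors deposited holds a signal, per the file headers a normalised read number per mature sequence, and no raw reads. The sources used here give no aligner, build, miRNA database or scaling, so no positions are printed. Of 980 entries, 5 that repeated the sequence and values of another were dropped. Per library, 88.1% to 92.7% of values above 0 were whole steps (tolerance 0.01 step), too few for a test on reads. limma 3.58.1 in R 4.3.3 modelled log2(value + 1) by age in 1 fit of the 9 libraries with a mean-variance trend. Adjustment ran over 630 sequences that reached 5 in 3 or more libraries. Adding 1 to each value shrinks fold changes of low values, whereas the listing of most sequences under 5 reads at 0 can enlarge them. With the common floor the log2 difference of miR-615 at day 210 against day 30 was -1.05 instead of -3.18. Ratios and shares were tested by exact permutation over all 1680 assignments of libraries to ages in Python 3.11.15. The procedures were tested on simulated data without the listing of values under 5 reads at 0, so those tests do not cover the scarce sequences. Intervals are 95% intervals of the limma fit. The miRNAs, the marker lists and the tests were chosen with earlier results of these data known. Named sequences are every entry of the 4 miRNAs, their relatives by sequence or place, the marker miRNAs, and the 5 most correlated sequences of the main arms. Alternatives were another pseudocount, filter, floor, scaling, prior and set of libraries, and the replicate number as a block.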

Additional observations from a re-analysis of the deposited data

How the results depend on the processing

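No alternative that tested it brought a miR-10 or miR-196 sequence past the threshold: 0 were called in all 3 comparisons, and the lowest adjusted p was 0.153, for miR-10a-5p at day 210 against day 90 without day 90 replicate 1. There were 358 alternative values of the 7 sequences, with 13 of miR-196b-5p in each comparison with day 90, where it was at 0. Of the 358, 14 turned direction, all in fits that left out 1 library. The log2 difference of miR-10a-5p at day 90 against day 30 then ran from -0.22 to 0.016, and that of mir-10b-p3 at day 210 against day 90 from -0.056 to 0.44. For miR-10a-3p it ran from -0.22 to 0.087 at day 210 against day 30 and from -0.012 to 0.30 at day 210 against day 90. For miR-196a it ran from -1.07 to 0.75 at day 90 against day 30, from -1.70 to 0.19 at day 210 against day 30 and from -1.53 to 0.61 at day 210 against day 90, and for mir-196a-1-p3 at day 90 against day 30 from -1.92 to 0.32. With a minimum of 20 the miR-196 sequences were not tested, nor was miR-196b-5p without day 30 replicate 2, day 30 replicate 3 or day 210 replicate 3, or with only the ages compared where 1 was day 90. In alternatives chosen after seeing the data, the log2 difference of miR-99a-5p at day 210 against day 30 ran from 0.35 to 0.64 (adjusted p 0.0214 to 0.101). The median of the miR-10 and miR-196 sequences ran without 1 library from -0.73 to -0.17 at day 90 against day 30, from -0.53 to -0.16 at day 210 against day 30 and from -0.034 to 0.34 at day 210 against day 90. Over all sequences the call counts moved more, and the cause was not tested. Between day 90 and day 30, 7 were called, 13 with the common floor, 29 with only the ages compared and 1 to 20 without 1 library. Between day 210 and day 30, 58 were called (29 higher, 29 lower), 38 with the common floor, 11 with only the ages compared, 98 as shares of all values (25 higher, 73 lower) and 9 to 90 without 1 library. Between day 210 and day 90, 51 were called (26 higher, 25 lower), 64 as shares (24 higher, 40 lower), 24 without the trend, 14 with only the ages compared and 8 to 112 without 1 library. Shares moved the median log2 difference of all sequences at day 210 against day 30 from -0.15 to -0.29. Deviations of same-numbered libraries correlated by -0.10 to 0.19, over 0.1 in 1 of 9 pairs, so the numbers were not taken to pair libraries; with the replicate block 1 sequence was called between day 90 and day 30, 45 between day 210 and day 30 and 47 between day 210 and day 90. No raw reads are held, and no counting error was worked out from the estimated reads.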
